A study of Homo sapiens with 6 samples.

Results

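The genes described here are a list of 42 hypoxia targets and glycolytic enzymes, chosen by gene symbol. Probe sets named 23 of them among the 14884 genes with a name on the array, and 22 were bright enough to be tested among 8620 genes (a mean log2 signal of at least 5). EGLN3 was the 1 named gene below that minimum. The other 19 genes were not analysed here: CA9, SLC2A1, SLC2A3, SLC16A3, PFKP, PFKL, PFKM, PFKFB3, PFKFB4, ALDOA, ALDOC, ENO1, ENO2, PKM, P4HA1, P4HA2, PDK1, BHLHE40 and AK4. Glucose and lactate transporters, phosphofructokinases, aldolases, enolases and pyruvate kinase are therefore missing from what follows, and both hexokinases and both BNIP3 genes are the pairs of related genes that could be set side by side.

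The study took the human ovarian cancer lines SKOV-3, ES-2 and OVCAR-3, 3 in all, and compared transfection with miR-135a-3p against the control miR-blank. Each line gave 1 array for each of these treatments, 6 arrays in all, so the 3 lines are the replicates of the microRNA comparison. The sources used here give no oxygen tension, dose, harvest time or form of the transfected RNA. Established lines are grown in culture without the stroma and vessels of a tumour, and each line stands for 1 tumour.

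In cells with enough oxygen, the prolyl hydroxylases EGLN1 and EGLN3 mark the alpha subunit of hypoxia-inducible factor, HIF, for destruction through the VHL ubiquitin ligase. When oxygen falls, HIF accumulates, pairs with ARNT and binds hypoxia response elements in its target genes. These targets raise glucose uptake and glycolysis, remove mitochondria, remodel collagen and call in blood vessels, and glycolysis is often high in cancer cells even with oxygen present. A microRNA lowers target transcripts mainly by pairing of its seed, bases 2 to 8, with sites in the messenger RNA.

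The transfected arm is shown because its seed differs from those of its near relatives. Sequences are from RefSeq (GRCh38.p14), printed 5′ to 3′ with the seed in capitals, and the gene of miR-135a-3p lies on the minus strand at chr3:52294232-52294253.
hsa-miR-135a-3p: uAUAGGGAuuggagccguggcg
hsa-miR-135a-2-3p: aUGUAGGGauggaagccaugaa
hsa-miR-135b-3p: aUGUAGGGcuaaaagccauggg
hsa-miR-135a-5p: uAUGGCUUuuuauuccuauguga
The seed of miR-135a-3p was AUAGGGA, that of both other 3p arms was UGUAGGG, and that of the 5p arm of the same hairpin was AUGGCUU. No transcript sequences were used here, so sites for these seeds in the hypoxia and glycolysis genes were not searched.

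Array medians lay between 4.16 and 4.23 on the log2 scale. MIR135A1, the hairpin gene that holds the transfected arm, read 1.75 to 2.26 on the miR-blank arrays and 11.58 to 12.57 on the miR-135a-3p arrays. It was the 1 gene of 8620 called by limma after transfection (0.0116%). Of the epithelial markers, KRT18 read 9.36 to 10.47 on all arrays, while EPCAM read 3.78 to 4.32, near the array median, and PAX8 read 8.80 and 8.12 in SKOV-3 but 4.12 to 4.80 elsewhere. CLDN7 read 9.24 and 8.97 in OVCAR-3 and 4.87 to 5.26 elsewhere, and the secreted SPP1 read 5.89 to 7.62 in ES-2, 9.21 and 11.68 in SKOV-3, and 12.66 and 12.78 in OVCAR-3. Of the 10 named epithelial markers, WT1, MSLN and SPP1 were at least 2-fold higher and KRT7 at least 2-fold lower in SKOV-3 after miR-135a-3p, SPP1 was at least 2-fold lower in ES-2 and KRT7 at least 2-fold higher in OVCAR-3. The part of these marker differences in the results below was not tested. The endothelial markers PECAM1, VWF, KDR and ERG read 3.87 to 5.09. Of the 4 named leukocyte markers, CD14 and LYZ read 2.35 to 3.74, TYROBP 4.97 to 5.87, and CD68, a lysosomal protein, 7.29 to 10.40.

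Differences after transfection are log2 signals with miR-135a-3p minus those with miR-blank in the same line. None of the 22 tested hypoxia and glycolysis genes passed limma's test (line as a block, adjusted p from 0.999 to 1.0), and 2 of 22 had an unadjusted p under 0.05, NDRG1 and WSB1, against 251 of 8620 genes (2.91%). Their median difference was 0.04, against −0.01 over all genes tested, and the median size of the difference was 0.11 in both. In 18 of 22 genes (81.8%) the range of the line means was wider than the within-line difference in every line, as it was in 70.8% of all genes tested.

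Signals were higher after miR-135a-3p in all 3 lines for 5 of the 22 genes (22.7%, against 9.54% of all genes tested): NDRG1, HK1, BNIP3, ERO1A and LOX. They were lower in all 3 lines for 2 (9.09%, against 13.4%): PGAM1 and WSB1. The remaining 15 had differences of mixed sign. Some shared signs rest on differences near 0: BNIP3 in SKOV-3 (0.0 after rounding), HK1 in ES-2 (0.04) and PGAM1 in OVCAR-3 (−0.04).

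NDRG1, a stress-induced protein widely used as a hypoxia marker, read 5.62 and 5.94 in ES-2, 4.66 and 5.57 in OVCAR-3, and 6.09 and 6.57 in SKOV-3, with miR-blank given first here and throughout. The differences of 0.32, 0.91 and 0.48 had a mean of 0.57 ± 0.30 (SD, n = 3) with a limma unadjusted p of 0.011 and an adjusted p of 0.999. All 3 miR-135a-3p arrays were above the miR-blank array of their own line, but the treatments overlapped across lines, since OVCAR-3 with miR-135a-3p stayed below ES-2 with miR-blank. The OVCAR-3 miR-blank signal lay near the array median.

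WSB1, a ubiquitin ligase subunit induced by hypoxia, read 8.30 and 8.0 in ES-2, 7.98 and 7.68 in OVCAR-3, and 8.11 and 7.65 in SKOV-3. Its mean difference was −0.35 ± 0.10 (SD, n = 3) with a limma unadjusted p of 0.0349 and an adjusted p of 0.999. Of the genes with 1 sign in all lines, ERO1A, the oxidase that forms disulfide bonds in the endoplasmic reticulum, read 9.36 and 9.68 in ES-2, 8.82 and 9.0 in OVCAR-3, and 8.96 and 9.21 in SKOV-3, a mean difference of 0.25 ± 0.07 (SD, n = 3). These within-line differences were alike in size, and neither gene passed the test.

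Within single lines, where there is 1 array for each treatment and hence no test, few of the genes moved past 2-fold. In ES-2, 0 of 22 were at least 2-fold higher (0.162% of all genes) and 0 were at least 2-fold lower (0.51%). In OVCAR-3, 0 were higher (0.29%) and STC1 alone was lower (4.55% of the 22, against 0.383% of all genes). In SKOV-3, HK2 and STC1 were higher (9.09%, against 2.34%), and MXI1 alone was lower (4.55%, against 1.66%). SKOV-3 also had the widest spread over all genes, with a median size of the difference of 0.24 against 0.15 in ES-2 and 0.16 in OVCAR-3, and for the 22 genes the sizes were 0.36, 0.17 and 0.21.

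**Figure D1:**
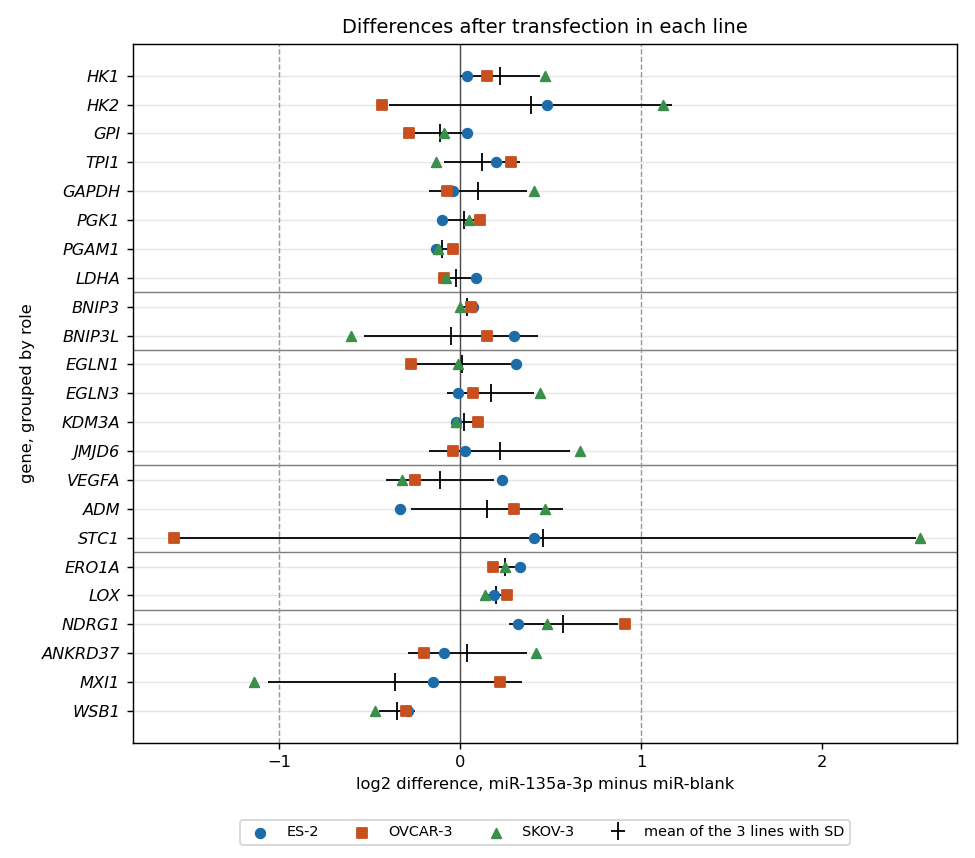
Log2 differences (miR-135a-3p minus miR-blank) of the 23 named genes, grouped by role, with 1 point per line, a tick and bar for the mean ± SD of the 3 lines, and dashed lines at 2-fold. Most points lie near 0; STC1 spans −1.58 in OVCAR-3 to 2.54 in SKOV-3, and NDRG1 is above 0 in all 3 lines.

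STC1, a secreted glycoprotein that acts on calcium and phosphate balance and is induced by HIF, had the widest differences. It read 9.15 and 9.56 in ES-2, 6.01 and 4.43 in OVCAR-3, and 7.41 and 9.96 in SKOV-3. The log2 difference of OVCAR-3 was −1.58, that of SKOV-3 was 2.54 and that of ES-2 was 0.41, a mean of 0.46 ± 2.06 (SD, n = 3), so the lines went opposite ways and the spread was several times the mean. In fold terms SKOV-3 was 5.83-fold higher after miR-135a-3p, and the OVCAR-3 signal after miR-135a-3p was 0.335 of that after miR-blank.

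HK2, the inducible hexokinase that phosphorylates glucose, read 8.98 and 9.46 in ES-2, 8.19 and 7.76 in OVCAR-3, and 6.59 and 7.71 in SKOV-3. Its differences of 0.48, −0.43 and 1.12 gave a mean of 0.39 ± 0.78 (SD, n = 3). MXI1, a MYC antagonist and HIF target, read 6.86 and 6.71, 6.14 and 6.36, and 7.65 and 6.52 in the same order of lines. Its differences were −0.15, 0.22 and −1.14, so SKOV-3 alone moved past 2-fold. MXI1 had a second, dimmer probe set with differences of −0.02, 0.39 and −0.41, which had the same signs and was under 2-fold in SKOV-3.

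The tested glycolytic enzymes below the hexokinases differed little after transfection. GPI, which isomerises glucose 6-phosphate, had a mean difference of −0.11 ± 0.16, TPI1, the triose isomerase, 0.12 ± 0.21, and GAPDH, which forms 1,3-bisphosphoglycerate, 0.10 ± 0.27 (SD, n = 3 for each). PGK1, which makes ATP from that product, had 0.02 ± 0.11, the mutase PGAM1 −0.10 ± 0.05, and LDHA, which reduces pyruvate to lactate, −0.02 ± 0.10 (SD, n = 3 for each). GAPDH is among the most abundant messengers of most cells, yet its probe set read 6.24 to 6.75, the 78.3 to 82.6 percentile of the probe sets of its array. How fully these probe sets follow their transcripts was not tested.

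Of the oxygen sensors, EGLN1 had differences of 0.31, −0.27 and −0.01, and EGLN3 read 3.38 to 3.83, below the median of its array on all 6 arrays. The histone demethylase KDM3A had differences between −0.02 and 0.10, among the smallest of the list, and JMJD6, a hydroxylase of the same fold family, had 0.03, −0.04 and 0.66. Among secreted factors, the angiogenic growth factor VEGFA had 0.23, −0.25 and −0.32, and the vasodilator peptide ADM −0.33, 0.30 and 0.47. ANKRD37, an ankyrin repeat protein and HIF target, had −0.09, −0.20 and 0.42. In each of the last 3 genes the lines did not share a sign.

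The second question the arrays can answer is how these genes differ between the lines. Here each line has both of its arrays, the treatment is the block, and a gene is called at a limma adjusted p under 0.05 and at least 2-fold. The arrays of a line differ in treatment, and the labels name no separate cultures, so these p-values measure only the scatter between such arrays. The 3 contrasts share arrays and are not independent of each other.

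ES-2 was the high line and OVCAR-3 the low line for many of the genes. Both OVCAR-3 arrays were below the other 4 for 12 of the 22 tested genes (54.5%), against 19.8% of all genes tested, and above the other 4 for 0, against 21.3%. Both ES-2 arrays were above the other 4 for 8 genes (36.4%, against 16.7%) and below for 2, ADM and GPI (9.09%, against 21.6%). Both SKOV-3 arrays were above for 5 (22.7%, against 18.7%) and below for 5 (22.7%, against 13.3%). The 12 genes lowest in OVCAR-3 were VEGFA, NDRG1, HK1, PGK1, LDHA, BNIP3L, EGLN1, KDM3A, ANKRD37, MXI1, LOX and STC1, and the 8 highest in ES-2 were HK1, HK2, PGK1, PGAM1, BNIP3, EGLN1, ERO1A and LOX. These counts describe a list chosen with earlier results known and carry no test of their own.

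**Figure D2:**
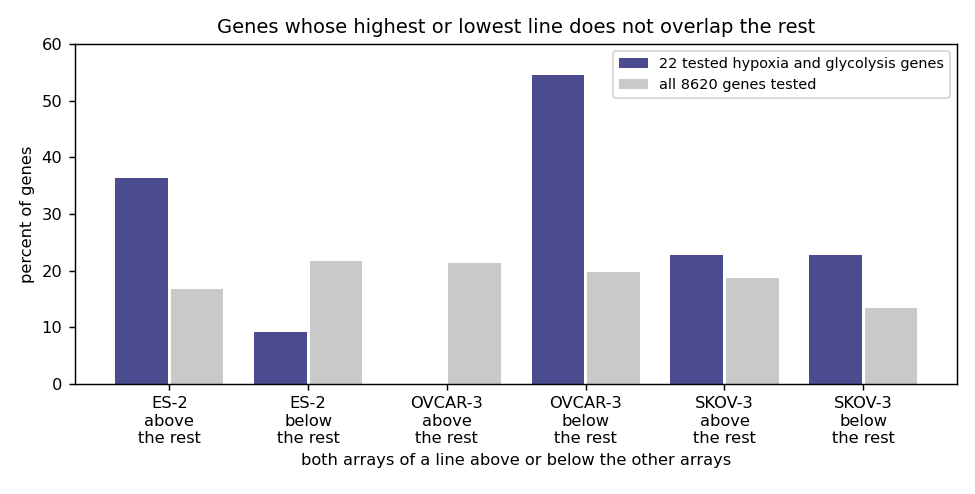
Percent of the 22 tested hypoxia and glycolysis genes (dark bars) and of all 8620 genes tested (grey bars) for which both arrays of a line lie above or below the other arrays; the vertical axis is percent of genes and starts at 0. OVCAR-3 is lowest for 54.5% of the listed genes against 19.8% of all genes, and highest for 0.

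In limma, 6 of the 22 genes exceeded OVCAR-3 in ES-2 (8.65% of all genes did) and 0 were lower (7.82%), although ADM was lower by an adjusted p of 0.0479 at under 2-fold (−0.77). Against SKOV-3, 4 were higher in ES-2 (4.85%) and 1 was lower (7.29%). OVCAR-3 had 0 genes above SKOV-3 (5.6%) and 6 below (8.96%), although PGAM1 was higher by an adjusted p of 0.00746 at under 2-fold (0.93). In all, 11 of 22 were called in at least 1 contrast (25.2% of all genes were), and 11 in none. These calls rest on the variance moderation of limma: without it, 0 of the 22 were called in any of the 3 contrasts, and LOX had an adjusted p of 0.0505 in ES-2 minus OVCAR-3. The median ES-2 minus OVCAR-3 difference was 0.61 for the 22 genes and −0.04 for all genes, and the median OVCAR-3 minus SKOV-3 difference was −0.50 and −0.01.

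**Figure D3:**
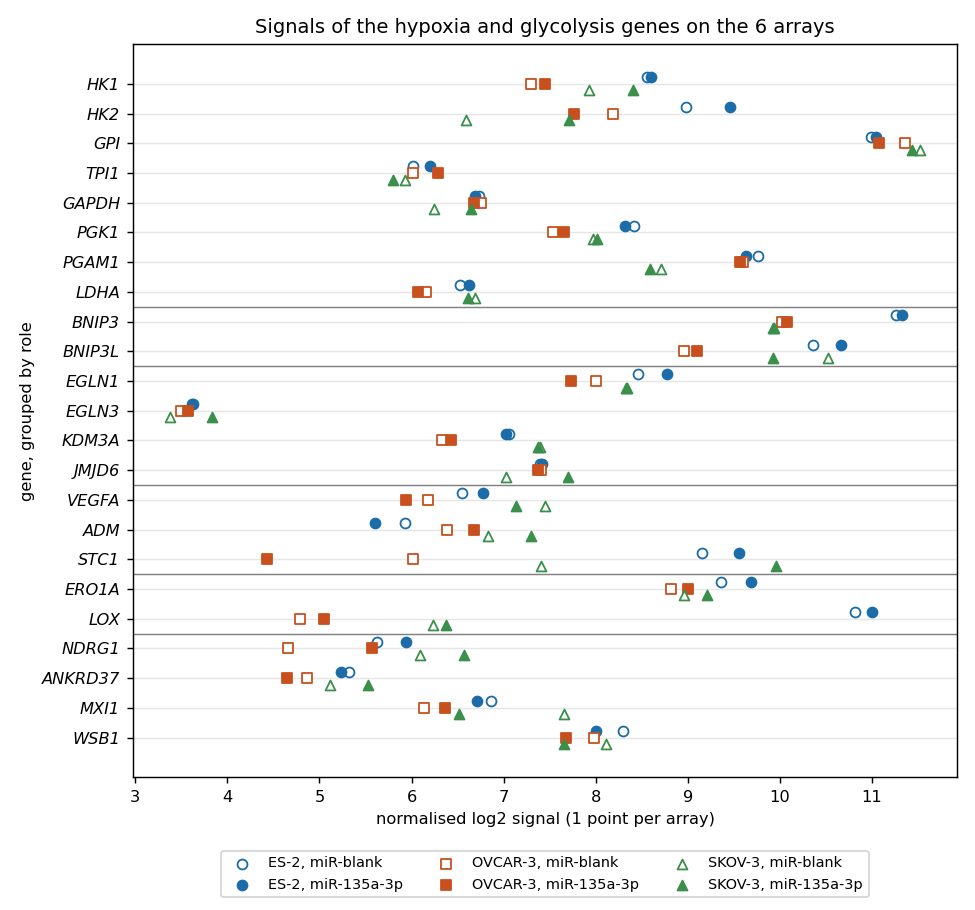
Normalised log2 signals of the 23 named genes on the 6 arrays, grouped by role, with 1 point per array, shape and colour for the line, and open points for miR-blank against filled points for miR-135a-3p. LOX runs from 4.79 in OVCAR-3 to 11.0 in ES-2, while GPI and WSB1 lie close together in all lines.

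LOX, the secreted oxidase that cross-links collagen and elastin, separated the lines most widely. It read 10.81 and 11.0 in ES-2, 4.79 and 5.05 in OVCAR-3, and 6.23 and 6.37 in SKOV-3. The arrays of a line were close together and the 3 lines did not overlap. ES-2 exceeded OVCAR-3 by 5.98 ± 0.16 (SE) on the log2 scale, a 63.3-fold difference with a limma adjusted p of 1.53e-05, and exceeded SKOV-3 by 4.61 ± 0.16 (24.4-fold, limma adjusted p of 4.44e-05). OVCAR-3 was in turn 2.60-fold below SKOV-3 (limma adjusted p of 0.00166), although its own signal lay close to the array median of about 4.2, and no detection calls were given, so the folds against OVCAR-3 depend on the floor of the array.

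STC1, whose array values are given above, was 17.6-fold above OVCAR-3 in ES-2, a log2 difference of 4.14 ± 0.83 (SE, limma adjusted p of 0.0122). OVCAR-3 was also 11.1-fold below SKOV-3 (−3.47 ± 0.83, limma adjusted p of 0.0258). Its OVCAR-3 reading of 4.43 lay near the array median, so these folds too depend on the floor. The arrays of OVCAR-3 and of SKOV-3 lay far apart, and the SE was the widest of the list. Without the OVCAR-3 array with miR-135a-3p, both calls were lost, at 2.61 (limma adjusted p of 0.0654) and −1.94 (limma adjusted p of 0.144).

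BNIP3 and BNIP3L, mitochondrial outer membrane receptors for mitophagy, differed between lines in different ways. BNIP3 read 11.26 and 11.33 in ES-2, 10.02 and 10.08 in OVCAR-3, and 9.92 and 9.93 in SKOV-3. Its within-line differences were at most 0.07, so treatment hardly moved it, while ES-2 was 2.37-fold above OVCAR-3 (limma adjusted p of 0.00193) and 2.60-fold above SKOV-3 (limma adjusted p of 0.00221). BNIP3L read 10.36 and 10.66 in ES-2, 8.96 and 9.10 in OVCAR-3, and 10.52 and 9.92 in SKOV-3. Here SKOV-3 lay with ES-2, and OVCAR-3 was 2.78-fold below ES-2 (limma adjusted p of 0.0061) and 2.28-fold below SKOV-3 (limma adjusted p of 0.0155). The ES-2 minus SKOV-3 differences of the pair were 1.38 ± 0.16 for BNIP3 and 0.29 ± 0.25 (SE) for BNIP3L, and the difference between these values was not tested.

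The hexokinases also had their own orders. HK1, the form found in most tissues, read 8.56 and 8.60 in ES-2, 7.30 and 7.45 in OVCAR-3, and 7.93 and 8.40 in SKOV-3, so OVCAR-3 was the low line, 2.31-fold below ES-2 (limma adjusted p of 0.00381). HK2 was lowest in SKOV-3, 4.20-fold below ES-2 (2.07 ± 0.34, SE, limma adjusted p of 0.00842), and OVCAR-3 was 2.38-fold below ES-2 (limma adjusted p of 0.0377). The OVCAR-3 and SKOV-3 values of HK2 did not overlap, but their difference of 0.82 ± 0.34 (SE) was not called (limma adjusted p of 0.131). Without the OVCAR-3 array with miR-135a-3p the ES-2 minus OVCAR-3 calls were lost for HK1, at 1.16 (limma adjusted p of 0.0566), and for HK2, at 0.64 (limma adjusted p of 0.262). The HK2 call was also lost without either ES-2 array, at 1.31 (limma adjusted p of 0.0745) and 1.18 (limma adjusted p of 0.107).

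Lower in the pathway, PGAM1 was the glycolytic enzyme called between lines. It read 9.76 and 9.63 in ES-2, 9.60 and 9.57 in OVCAR-3, and 8.71 and 8.59 in SKOV-3, which was 2.07-fold below ES-2 (limma adjusted p of 0.00604). Without the ES-2 array with miR-blank the PGAM1 difference was 1.02 and the call was lost (limma adjusted p of 0.0565). PGAM4, a near-identical copy that can share probes, read 6.61 and 6.75 in SKOV-3 and 7.19 to 7.73 in the other lines. PGK1 read 8.42 and 8.32 in ES-2 and 7.54 and 7.65 in OVCAR-3, a difference of 0.78 ± 0.16 (SE, limma adjusted p of 0.0145) that did not reach 2-fold.

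GPI, TPI1, GAPDH and LDHA were called in no contrast. GPI read 10.99 to 11.52 over the 6 arrays and TPI1 5.80 to 6.29. LDHA read 6.53 and 6.62 in ES-2, 6.16 and 6.07 in OVCAR-3, and 6.69 and 6.61 in SKOV-3, so OVCAR-3 was the low line there too, with an OVCAR-3 minus SKOV-3 difference of −0.54 and a limma adjusted p of 0.0539. Thus 3 of the 8 tested glycolytic enzymes, HK1, HK2 and PGAM1, were called in a contrast, where 25.2% of all genes tested were called in at least 1.

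The secreted factors VEGFA and ADM were highest in SKOV-3. VEGFA read 6.55 and 6.78 in ES-2, 6.18 and 5.94 in OVCAR-3, and 7.45 and 7.13 in SKOV-3, and OVCAR-3 was 2.35-fold below SKOV-3 (limma adjusted p of 0.00604). ADM read 5.93 and 5.60 in ES-2, 6.38 and 6.68 in OVCAR-3, and 6.83 and 7.30 in SKOV-3, and it was the 1 gene lower in ES-2, 2.47-fold below SKOV-3 (limma adjusted p of 0.0106). ADM thus ran opposite to most of the list, with ES-2 lowest. Its call was lost without the ES-2 array with miR-135a-3p, at −0.95 (limma adjusted p of 0.0774).

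For NDRG1, OVCAR-3 was 2.32-fold below SKOV-3 (−1.22 ± 0.20, SE, limma adjusted p of 0.00645). The OVCAR-3 reading of 4.66 with miR-blank lay near the array median, so this fold also depends on the floor. KDM3A, which read 7.06 and 7.03 in ES-2, 6.33 and 6.43 in OVCAR-3, and 7.39 and 7.37 in SKOV-3, differed by −1.0 ± 0.16 (SE, limma adjusted p of 0.00603) in the same contrast and sat at the 2-fold threshold. EGLN1, a HIF target as well as a HIF regulator, read 8.46 and 8.77 in ES-2, 8.0 and 7.73 in OVCAR-3, and 8.34 and 8.33 in SKOV-3, a difference of 0.75 between ES-2 and OVCAR-3 that stayed under 2-fold. ANKRD37, MXI1, ERO1A, JMJD6 and WSB1 were called in no contrast. Without the OVCAR-3 array with miR-blank the OVCAR-3 minus SKOV-3 calls of VEGFA (limma adjusted p of 0.0523), NDRG1 (0.0799), BNIP3L (0.145) and KDM3A (0.0804) were lost. Without the OVCAR-3 array with miR-135a-3p those of VEGFA (0.0796), BNIP3L (0.0856) and KDM3A (0.063) were lost and that of NDRG1 was kept. Without the SKOV-3 array with miR-blank, BNIP3L and KDM3A fell under 2-fold, at −0.78 and −0.97, and the ES-2 minus OVCAR-3 call of BNIP3L was lost without the OVCAR-3 array with miR-blank (1.33, limma adjusted p of 0.0763). LOX kept its calls in all 3 contrasts and BNIP3 its calls in both of its contrasts when any 1 array was left out.

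Hypoxia response elements share the core ACGTG or GCGTG, and promoters were searched for both on both strands. RefSeq promoter windows of 300 bases, from 250 before to 50 after a transcript start, were at hand for 36 of the 42 genes and not for JMJD6, STC1, NDRG1, VEGFA, SLC2A3 and BNIP3L. A palindrome CACGTG was counted as a match on each strand, 2 overlapping matches. At least 1 core lay in 50 of the 70 windows of the listed genes (71.4%), in 61.8% of the windows of genes tested, and in 48.4% of all 35116 windows. Counted by gene, 33 of 36 listed genes (91.7%) and 16 of the 17 tested among them (94.1%) had a core in some window, against 70.8% of genes tested. The 36 listed genes had 70 windows and the 6857 genes tested had 9749, so a listed gene had more windows in which to match. Of the tested members, 6 of 7 called between lines and 10 of 10 not called had a core, so its presence did not separate them. A match is a string of letters and does not show that HIF binds there.

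The bases before the start site are shown for 2 genes that were highest in ES-2, LOX and BNIP3, and for LDHA, which was called in no contrast. Where a gene had several windows, the one with the most cores is shown: LOX had 3 windows with 4, 2 and 2 cores, LDHA had 2 with 6 and 1, and BNIP3 had 1 with 6. They are printed along the strand of the gene with the matched cores in capitals. The LOX stretch lies on the minus strand at chr5:122078260-122078509, that of BNIP3 on the minus strand at chr10:131981924-131982173, and that of LDHA on the plus strand at chr11:18394313-18394562 (GRCh38.p14).
LOX: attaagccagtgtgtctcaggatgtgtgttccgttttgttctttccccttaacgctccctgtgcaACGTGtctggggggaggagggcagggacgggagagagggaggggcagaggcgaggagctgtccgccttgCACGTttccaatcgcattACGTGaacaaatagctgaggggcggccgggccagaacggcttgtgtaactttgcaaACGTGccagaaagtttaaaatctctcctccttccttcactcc
BNIP3: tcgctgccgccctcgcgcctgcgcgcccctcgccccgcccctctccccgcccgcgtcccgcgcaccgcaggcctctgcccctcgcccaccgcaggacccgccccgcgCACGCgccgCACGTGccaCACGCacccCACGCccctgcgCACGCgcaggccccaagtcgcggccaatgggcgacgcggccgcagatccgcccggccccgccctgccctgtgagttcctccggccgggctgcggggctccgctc
LDHA: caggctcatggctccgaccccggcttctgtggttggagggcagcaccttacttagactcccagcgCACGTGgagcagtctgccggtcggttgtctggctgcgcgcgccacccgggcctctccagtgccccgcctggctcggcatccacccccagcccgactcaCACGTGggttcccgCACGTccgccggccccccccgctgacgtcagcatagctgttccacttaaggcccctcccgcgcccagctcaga
The 4 LOX cores begin at bases −185, −116, −98 and −42 from the start and all have the letters ACGTG or its reverse complement CACGT. The 6 BNIP3 matches begin between bases −143 and −104, and 4 of them are GCGTG on the opposite strand, printed as CACGC. In LDHA, 5 of the 6 matches lie before the start, with a palindrome at −185 and another at −87.

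Other genes of the pathway were read from lists that hold none of the 22. Of the HIF machinery, 6 of 16 listed genes were tested, and of other hypoxia targets 31 of 50. Of other glycolysis and lactate genes 9 of 29 were tested, of pyruvate and mitochondrial entry 10 of 15, and of the pentose phosphate and gluconeogenesis genes 7 of 12. None of these 5 lists had a gene called by limma after miR-135a-3p, and 1 of their 63 tested genes, TMEM45A, had an unadjusted p under 0.05. Their median differences were −0.01, −0.07, 0.04, −0.16 and −0.12 in that order, beside −0.01 over all genes.

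Between lines, EDN1, the vasoconstrictor endothelin and a hypoxia target, had the pattern of LOX. It read 10.03 on both ES-2 arrays, 3.37 and 3.99 in OVCAR-3, and 8.34 and 7.04 in SKOV-3, and ES-2 was called above OVCAR-3 (limma adjusted p of 0.000137). VLDLR, a lipoprotein receptor, read 6.76 and 7.26 in ES-2, 3.48 and 3.46 in OVCAR-3, and 6.74 and 6.56 in SKOV-3, with the same call (limma adjusted p of 9.36e-05). Both genes lay below the array median on the OVCAR-3 arrays and were not shown to be above background there, so no fold is given. Over the other hypoxia targets, however, calls went both ways. ES-2 exceeded OVCAR-3 in 5 of 31 (8.65% of all genes) and was below it in 6 (7.82%), and it exceeded SKOV-3 in 2 (4.85%) and was below it in 5 (7.29%). OVCAR-3 exceeded SKOV-3 in 5 (5.6%) and was below it in 5 (8.96%). Both OVCAR-3 arrays were below the other 4 for 10 of these 31 targets (19.8% of all genes) and above them for another 10 (21.3%). Among the 9 other glycolysis genes they were below for 3 and above for 3, so by this count neither list had OVCAR-3 low more often than high. By line means, OVCAR-3 was lowest for 15 and highest for 11 of the 31 targets, against 2891 and 3160 of all 8620 genes tested. It was lowest for 3 and highest for 6 of the 9 glycolysis genes. For PLIN2, which coats lipid droplets, OVCAR-3 was above ES-2 (−1.36 ± 0.21 for ES-2 minus OVCAR-3, SE, limma adjusted p of 0.0046).

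HIF1A, VHL, EGLN2 and HIF1AN were not among the 6 tested genes of the HIF machinery. Both ES-2 arrays were below the other 4 for 5 of these 6 (EPAS1, ARNT, ARNT2, EP300 and CREBBP, against 21.6% of all genes). They were above for 1, CUL2 (16.7%). With miR-135a-3p, ARNT read 8.45 in ES-2 against 8.50 in SKOV-3, and CREBBP 9.28 in ES-2 against 9.31 in OVCAR-3. These gaps were small, and neither gene was called in a contrast. EPAS1, the alpha subunit of HIF-2, read 6.10 and 5.43 in ES-2, 6.59 and 6.58 in OVCAR-3, and 7.39 and 7.63 in SKOV-3. ES-2 was below SKOV-3 (−1.75 ± 0.24, SE, limma adjusted p of 0.00438). For the coactivator EP300, OVCAR-3 was above ES-2 (−1.71 ± 0.17 for ES-2 minus OVCAR-3, SE, limma adjusted p of 0.000766). Among other hexokinase genes, HKDC1 read 8.33 and 7.92 in SKOV-3 and 4.11 to 4.92 in the other lines, so SKOV-3, the line with the lowest HK2, had the highest HKDC1 (limma adjusted p of 0.000313 against ES-2). The low HKDC1 signals lay near the array median, so no fold is given. In the list of pyruvate and mitochondrial entry, ES-2 was more often the low line: both ES-2 arrays were below the other 4 for 7 of 10 genes (PDHA1, PDHB, DLAT, DLD, MPC2, PC and CS, against 21.6% of all genes) and above for 2, PDP1 and MPC1 (16.7%). DLAT, DLD and MPC2 were called below OVCAR-3 in ES-2, at −1.53, −1.20 and −1.03 (limma adjusted p of 0.00342, 0.013 and 0.0127), and PC, which feeds pyruvate to oxaloacetate, was called below SKOV-3 at −1.10 (limma adjusted p of 0.00955). PDP1, the phosphatase that activates pyruvate dehydrogenase, was called above OVCAR-3 in ES-2 (limma adjusted p of 0.000327), with OVCAR-3 readings of 3.70 and 3.61 below the array median. MPC1, a subunit of the mitochondrial pyruvate carrier, was lowest in SKOV-3, at 7.01 and 6.12, against 8.06 to 8.73 elsewhere (limma adjusted p of 0.00326 against ES-2 and 0.0091 against OVCAR-3).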

How the data were processed

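RNA from 6 samples of 3 ovarian cancer lines was extracted with the RNeasy Plus Mini kit and labelled with biotin after WT PLUS cDNA synthesis, per the labels' protocols. The deposited values were normalised log2 signals of 53617 probe sets. Per the submitters' processing notes, the tools were Transcriptome Analysis Console 3.0, Affymetrix Expression Console 1.4 and RMA, whose roles are not stated. RMA equalises the array distributions, so a shift of most genes one way would be removed, and no detection calls were given.

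Names came from the platform annotation, updated by Entrez identifier with a RefSeq table (GRCh38.p14): 16098 had 1 symbol and 37519 were unnamed here. The probe set with the highest mean stood for a gene, and genes with a mean log2 of at least 5 were tested. limma 3.58.1 in R 4.3.3 (lmFit, eBayes, two-sided, Benjamini-Hochberg over all genes tested) was fitted with the line as a block for the transfection and with the transfection as a block for the lines. Arrays of a line form a pair because they share a cell line; after subtraction of the group means they correlated at 0.76 in SKOV-3, 0.90 in ES-2 and 0.91 in OVCAR-3. The fits were checked on simulated data. The small number of arrays limits the precision.

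Full values are given for NDRG1, genes of 1 sign in all lines, the extreme genes of each line, genes called between lines and related pairs; other pathway genes were named among calls. The genes and lists were chosen with earlier results of these data known. Alternatives were the fit without the block, other filters, normalizations and variance settings, the mean over probe sets, and lines or arrays left out. A planned comparison of protein sequences was not made here.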

Additional observations from a re-analysis of the deposited data

Results flagged for a closer look

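STC1 drew attention because its within-line differences went past 2-fold in opposite directions. The log2 difference, miR-135a-3p minus miR-blank, was 2.54 in SKOV-3 and −1.58 in OVCAR-3, with 1 array per treatment in each line. The difference between the lines was not tested.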

How the results depend on the processing

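After miR-135a-3p, 0 of the listed genes were called under every alternative tried, and 1 gene was called overall except without variance moderation, where limma called 0 (337 had an unadjusted p under 0.05, and 3 of the listed genes), and with a line left out, where the count ranged from 1 to 4. Without the replicate block, limma called 1 gene and 0 listed genes, and the median difference stayed at 0.04. That median ranged from 0.01 without SKOV-3 to 0.08 without ES-2, and 11 listed genes changed the sign of their mean difference when a line was left out. Without variance moderation, 0 listed genes were called for ES-2 minus OVCAR-3, 0 for ES-2 minus SKOV-3 and 0 for OVCAR-3 minus SKOV-3, with all-gene counts of 0, 4 and 0. With an array left out, the counts of listed genes ranged from 3 to 6, from 4 to 6 and from 2 to 8. These ranges are given without the all-gene counts, so they do not show whether the listed genes moved apart from other genes. Of 237 values of called line differences over the alternatives, 200 kept their call, 37 lost it and 0 reversed. HK2 lost its ES-2 minus OVCAR-3 call with no filter (limma adjusted p of 0.0503), and KDM3A fell under 2-fold after quantile normalization. In settings chosen after seeing the data, the count of genes lowest in OVCAR-3 ranged from 10 to 14. That of genes highest in ES-2 ranged from 7 to 13, the last with the miR-135a-3p arrays alone, where 29.8% of all genes were highest in ES-2. A treatment alone leaves 1 array per line, so the share of all genes lowest in OVCAR-3 is then also at least the 19.8% over 6 arrays. The upper end of the OVCAR-3 range is therefore no sign of a stronger pattern. With 6 arrays and no detection calls, changes of dim genes such as EGLN3 and ANKRD37 could not be told from background.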

Other observations

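Carbon entry into mitochondria and the pentose phosphate branch held several genes with 1 sign in all lines. After miR-135a-3p, PDHA1, PDHB, DLD and PDP1 were lower in all 3 lines, 4 of the 10 tested genes of pyruvate and mitochondrial entry, and 0 were higher. RPE, TKT, TALDO1 and PCK2 were lower in all 3 lines, 4 of the 7 tested pentose phosphate and gluconeogenesis genes, and 0 were higher. Several of these shared signs rest on differences near 0: RPE in ES-2 (−0.01), PDHB in SKOV-3 (−0.01) and TKT in OVCAR-3 (−0.05). Over all genes tested, 13.4% were lower and 9.54% higher in all 3 lines. None of these genes was called by limma, so the counts are a description.

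Of the 31 tested other hypoxia targets, 4 were higher in all 3 lines (9.54% of all genes were): ANGPTL4, TMEM45A, HMOX1 and MIF. Another 4 were lower in all 3 lines (13.4%): HILPDA, PDGFB, VEGFB and ERRFI1. Some of these differences were near 0, as for ANGPTL4 in ES-2 (0.0), MIF (0.01 to 0.05) and ERRFI1 in OVCAR-3 (−0.01). TMEM45A had differences of 1.18 in SKOV-3, 0.75 in ES-2 and 0.23 in OVCAR-3, a mean of 0.72 with a limma unadjusted p of 0.0101, and it was not called. In SKOV-3, 3 of the 31 were at least 2-fold lower with miR-135a-3p (1.66% of all genes). DDIT4, an inhibitor of mTOR signalling, went from 9.65 to 8.20, EDN1 from 8.34 to 7.04, and the nuclear receptor coactivator PNRC1 from 10.12 to 8.20. TMEM45A alone was at least 2-fold higher there (2.34%). In OVCAR-3, STC2 alone was at least 2-fold lower (0.383%), from 6.61 to 5.25. CD68 read 2.24 higher on the log2 scale in SKOV-3 after miR-135a-3p. Of the other named leukocyte markers, TYROBP also read higher there, by 0.70, and CD14 and LYZ read at most 3.74 on all arrays.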
